A study of Mus musculus with 6 samples.

Results

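The expression of 39 genes of T cells and natural killer (NK) cells was followed in irradiated mouse bone. The genes were chosen by symbol from the 43346 genes of the count table, as components of the T cell receptor complex, its signalling chain, the lineage transcription factors, NK receptors and cytotoxic granules, and all 39 were found. The libraries came from C57BL/6 mice, an inbred strain, aged 4 months. A single image-guided X-ray dose of 24 Gy (gray, the unit of absorbed dose) was given at 6.6 Gy per minute to 5 mm of the distal metaphysis, the marrow-rich end, of the right femur. The left femur of irradiated animals, kept out of the beam, was the control, so both groups came from animals that had received local radiation. Bone with its marrow was taken on day 21, with muscle removed, which gave 3 radiated and 3 non-radiated libraries. Each library mixes all cells of the piece of bone, and the labels do not say whether libraries with the same number came from 1 mouse, so p-values measure the spread between these libraries. In such bulk RNA, more cells of a type and more RNA per cell cannot be told apart.

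T cells recognise antigen through the T cell receptor, whose variable chains carry no signalling tail and rely on the CD3 and zeta chains. The kinase Lck phosphorylates these tails, Zap70 docks on them, and the adaptor Lat then assembles the downstream signalling complex. NK cells lack this receptor and read stress and missing self through germline-encoded receptors, and both kinds of cell kill through perforin and granzymes. Bone marrow holds few mature T and NK cells beside a large myeloid, erythroid and B-lineage compartment, and several genes of T cells are also used by these other cells.

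Total gene counts were 34034251 to 48708383 per library, of which the 39 genes together held 5549 to 14315. Values are given as CPM, read counts scaled to a common library size, adjusted between libraries by the trimmed mean of M-values (TMM). In non-radiated library 2 the single row AY036118 held 32.9% of counts, against 0.321% to 5.61% in the others, which left that library with fewer counts of the T and NK cell genes than any other. Counts of the 10 skeletal muscle markers summed to 137 to 288 CPM in the non-radiated libraries and to 640, 2045 and 160 CPM in radiated libraries 1, 2 and 3. None of the 39 genes was at 0 in any library. The defining chains Cd3d, Cd3e and Cd3g had 38 to 208 counts per gene and library, so T cell transcripts were present but scarce.

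Promoter sequence was compared as a feature that does not rest on the counts. RefSeq windows of 250 bases before a transcription start (GRCm38.p6) were matched to 28 of the 39 genes, in 35 windows. The letters TGTGGT, the core bound by RUNX factors, were found on either strand in 11 of the 35 windows (31.4%), against 14.0% of all 32851 windows of that length. By gene, 10 of 28 (35.7%) held them, against 15.9% of all genes with a window. Those 10 comprised 4 of 5 cytotoxic effectors (Gzma, Gzmb, Prf1 and Nkg7) and all 3 NK receptors with a window (Ncr1, Klrb1c and Klrk1). The rest were 3 of 4 signalling genes (Lck, Zap70 and Txk). The Zap70 and Txk matches lay in windows of starts inside the gene, and their upstream windows held none. Klrb1c had its only window inside the gene. Ncr1 had overlapping windows that shared the same matches, each counted among the 11. No window held these letters among the 4 T cell receptor complex genes, the 2 coreceptor and adhesion genes, the 3 costimulatory and checkpoint receptors, the 1 cytokine receptor and the 6 transcription factors with a window. The windows of Gzma (chr13:113100982-113101231, minus strand), Gzmb (chr14:56262335-56262584, minus), Prf1 (chr10:61297586-61297835, plus), Klrk1 (chr6:129623865-129624114, minus), Ncr1 (chr7:4337474-4337723, plus) and the upstream start of Lck (chr4:129573642-129573891, minus) are printed 5′ to 3′ because they hold these letters in the effector, NK receptor and kinase genes compared in the counts, with TGTGGT or its reverse complement in capitals.
Gzma: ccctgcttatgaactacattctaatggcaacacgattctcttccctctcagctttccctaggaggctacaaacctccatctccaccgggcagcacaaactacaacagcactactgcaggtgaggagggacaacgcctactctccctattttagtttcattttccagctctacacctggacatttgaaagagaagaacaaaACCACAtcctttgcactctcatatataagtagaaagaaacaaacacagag
Gzmb: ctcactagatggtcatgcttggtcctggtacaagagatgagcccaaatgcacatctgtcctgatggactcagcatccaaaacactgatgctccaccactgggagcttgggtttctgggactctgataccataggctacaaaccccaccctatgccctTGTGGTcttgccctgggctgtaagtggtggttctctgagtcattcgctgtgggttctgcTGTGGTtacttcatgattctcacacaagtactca
Prf1: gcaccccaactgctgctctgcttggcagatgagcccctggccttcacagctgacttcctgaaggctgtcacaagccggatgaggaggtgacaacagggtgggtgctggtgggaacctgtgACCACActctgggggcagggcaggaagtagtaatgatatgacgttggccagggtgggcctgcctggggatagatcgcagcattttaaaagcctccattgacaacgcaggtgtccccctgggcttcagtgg
Klrk1: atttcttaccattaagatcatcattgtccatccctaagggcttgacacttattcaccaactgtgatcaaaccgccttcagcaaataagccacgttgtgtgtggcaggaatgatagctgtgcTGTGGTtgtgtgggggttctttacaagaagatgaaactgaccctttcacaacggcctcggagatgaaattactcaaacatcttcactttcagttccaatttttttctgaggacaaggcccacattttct
Ncr1: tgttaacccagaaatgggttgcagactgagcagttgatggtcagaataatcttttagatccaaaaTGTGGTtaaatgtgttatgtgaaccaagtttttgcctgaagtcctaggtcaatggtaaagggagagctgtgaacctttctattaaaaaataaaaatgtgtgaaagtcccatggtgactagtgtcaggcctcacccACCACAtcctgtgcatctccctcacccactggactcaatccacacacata
Lck: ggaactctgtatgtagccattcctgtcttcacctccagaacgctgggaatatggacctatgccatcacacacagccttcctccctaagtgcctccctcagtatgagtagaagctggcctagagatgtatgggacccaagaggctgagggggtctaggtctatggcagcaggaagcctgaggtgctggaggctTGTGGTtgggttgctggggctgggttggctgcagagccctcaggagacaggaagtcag
In the Gzma window the match lies 50 bases before the start, on the reverse strand, and in the Lck window 58 bases before it. Gzmb and Ncr1 each hold a pair of matches. The window of Nkg7, also an effector, holds a match 83 bases before the start, on the reverse strand, and is not printed. Of the other letters searched on both strands, GGTGTGA, part of the T-box element, was in 2.9% of the windows of these genes against 3.33% of all windows. CTTTGA, bound by TCF and LEF factors, was in 11.4% against 13.8%. AGATAA, a motif of the GATA family, was in 8.6% against 9.99%. CCGGAA, a core of Ets-family sites, was in 8.6% against 12%. The short run GGAAA, contained in NFAT sites, was in 65.7% against 55.6%, and its bases can be shared with an Ets-family match. A match is a run of letters and not a measured binding site.

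Of the T and NK cell genes 6 rose in the radiated femur and 1 fell. Il7r, Cd2, Lck, Cd247, Tbx21 and Gzma were higher by 1.40- to 1.80-fold, and Lat was at 0.498 of its non-radiated level. Of the 39 genes, 38 had enough counts to be tested (Ifng did not), and 7 of these 38 (18.4%) had an adjusted p under 0.05 by edgeR's quasi-likelihood test, against 7.8% of all 18757 genes tested. The 6 higher calls compare with 4.56% of all genes called higher, and the 1 lower call with 3.24% called lower. At an unadjusted p under 0.05 there were 20 of 38, 18 higher and 2 lower, against 21.5% of all genes. Log2 fold changes were positive for 34 of 38 genes (50.5% of all genes) with a median of 0.42, against 0.00 over all genes tested. The groups did not overlap for 22 of 38 genes (57.9%), against 25.9% of all genes. DESeq2's Wald test and limma-voom each called 6 of the 38. Leaving out non-radiated library 1 or 2 left 4 calls, and leaving out radiated library 1 left 3 with a median of 0.33.

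**Figure D1:**
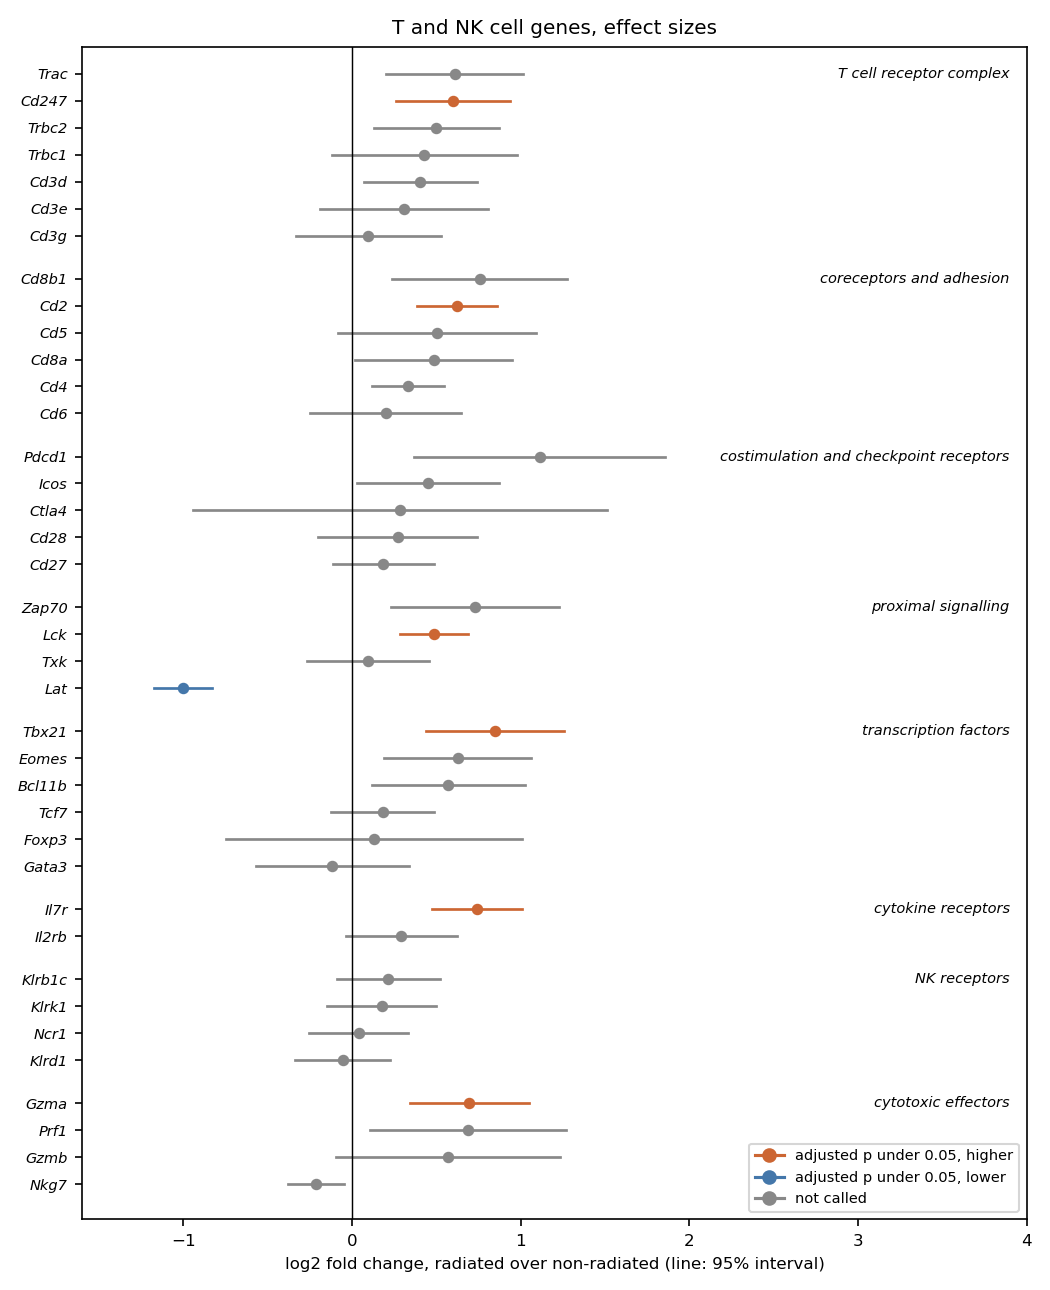
Log2 fold change (x axis) of the 38 tested genes, radiated over non-radiated, with 95% intervals, grouped by role. Most points lie right of 0, the 6 genes called higher are orange, and Lat, in blue, is alone far to the left at -1.0.

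The T cell receptor itself is made of alpha and beta chains, whose constant parts are encoded by Trac, Trbc1 and Trbc2, and of the CD3 and zeta chains. All 7 of these genes had positive log2 fold changes, with 1 called. Cd247 (ENSMUSG00000005763, chromosome 1, 165788681 to 165877277, build mm10), the zeta chain with its repeated activation motifs, was at 1.89, 2.04 and 1.86 CPM in non-radiated libraries 1, 2 and 3 and at 3.04, 2.64 and 3.09 CPM in radiated libraries 1, 2 and 3. Every radiated library was above every non-radiated one, with a log2 fold change of 0.60 (SE 0.15, adjusted p 0.0428 by edgeR). The call depended on the setting, being kept in 5 of 16 settings and in none of the 6 fits without 1 library. With the replicate number as a block the edgeR adjusted p was 0.0619. Exons of Cd247 also share 3007 bases with Pou2f1 on the opposite strand, and whether the counting used strand is not given in the sources used here.

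Trac, the alpha constant region (chromosome 14, 54220521 to 54223097), was at 1.29, 1.24 and 1.63 CPM in the non-radiated and 2.22, 1.93 and 2.24 CPM in the radiated libraries. The groups did not overlap, with a log2 fold change of 0.61 (SE 0.18), but the adjusted p of 0.0771 by edgeR missed the threshold. For the beta constant genes the log2 fold changes were 0.50 (Trbc2, adjusted p 0.108 by edgeR) and 0.43 (Trbc1, 0.363), again without overlap. Trbc1 and Trbc2 transcripts are 95.6% identical over 521 bases, so the split of reads between them is uncertain.

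None of the invariant CD3 chains was called. Cd3d was at 2.84 ± 0.340 and 3.75 ± 0.295 CPM (mean ± SD, n = 3 each), log2 fold change 0.40, adjusted p 0.148 by edgeR, without overlap. Cd3e was at 2.66, 1.52 and 2.71 CPM in the non-radiated and 2.75, 3.22 and 2.64 CPM in the radiated libraries, so the groups overlapped and the only low value was that of non-radiated library 2. Cd3g was at 1.80 ± 0.236 and 1.92 ± 0.308 CPM (n = 3 each), with a log2 fold change of 0.10 and a 95% interval from -0.34 to 0.53. Summed over the 7 receptor genes, the level was 13.5 to 16.2 CPM in the non-radiated and 19.5 to 21.1 CPM in the radiated libraries, a ratio of means of 1.35.

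Of 6 coreceptor and adhesion genes all had positive log2 fold changes and 1, Cd2, was called. Cd2 (ENSMUSG00000027863, chromosome 3, 101275899 to 101287939), an adhesion receptor that in mice is carried by T, NK and B-lineage cells, was at 11.96, 11.78 and 11.96 CPM in the non-radiated and 19.0, 15.6 and 20.3 CPM in the radiated libraries. The non-radiated values were nearly level and all lay below the lowest radiated one, with a log2 fold change of 0.62 (SE 0.11, adjusted p 0.00781 by edgeR). It was called in all 16 settings. Cd8b1, which with Cd8a forms the coreceptor of killer T cells, was at 0.738 ± 0.178 and 1.26 ± 0.0939 CPM (n = 3 each), log2 fold change 0.76, adjusted p 0.0838 by edgeR. Cd8b1 shares stretches of up to 172 bases at 90% identity or more with 339 other genes, and its counts are uncertain. Cd8a was at 2.63, 2.40 and 2.10 CPM in the non-radiated and 4.36, 2.88 and 2.76 CPM in the radiated libraries. Radiated library 1 stood above the other radiated libraries for Cd8a, and the difference was not called (adjusted p 0.213 by edgeR).

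Cd4, the coreceptor of helper T cells, is also carried by dendritic cells. It was at 25.3, 28.1 and 30.8 CPM in the non-radiated and 39.1, 33.3 and 33.7 CPM in the radiated libraries, without overlap (log2 fold change 0.33, SE 0.09, adjusted p 0.0678 by edgeR). Cd4 was called in 4 of 16 settings. The 7 markers of plasmacytoid dendritic cells summed to 161 to 173 CPM in the non-radiated and 151 to 158 CPM in the radiated libraries. Of these 2, Siglech and Ccr9, were called lower and none higher. Most of the sum was Tcf4, with means of 110 and 112 CPM. Of 6 markers in a separate dendritic cell list 1 was called higher and 2 lower, with sums of 57.7 to 64.0 and 44.0 to 53.0 CPM. The part of dendritic cells in the level of Cd4 was not tested. Cd5 and Cd6, inhibitory scavenger-type receptors, were not called (adjusted p 0.311 by edgeR and 0.635). Cd5 was highest in radiated library 1, at 3.51 CPM, against 2.04 and 1.81 CPM in radiated libraries 2 and 3.

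**Figure D2:**
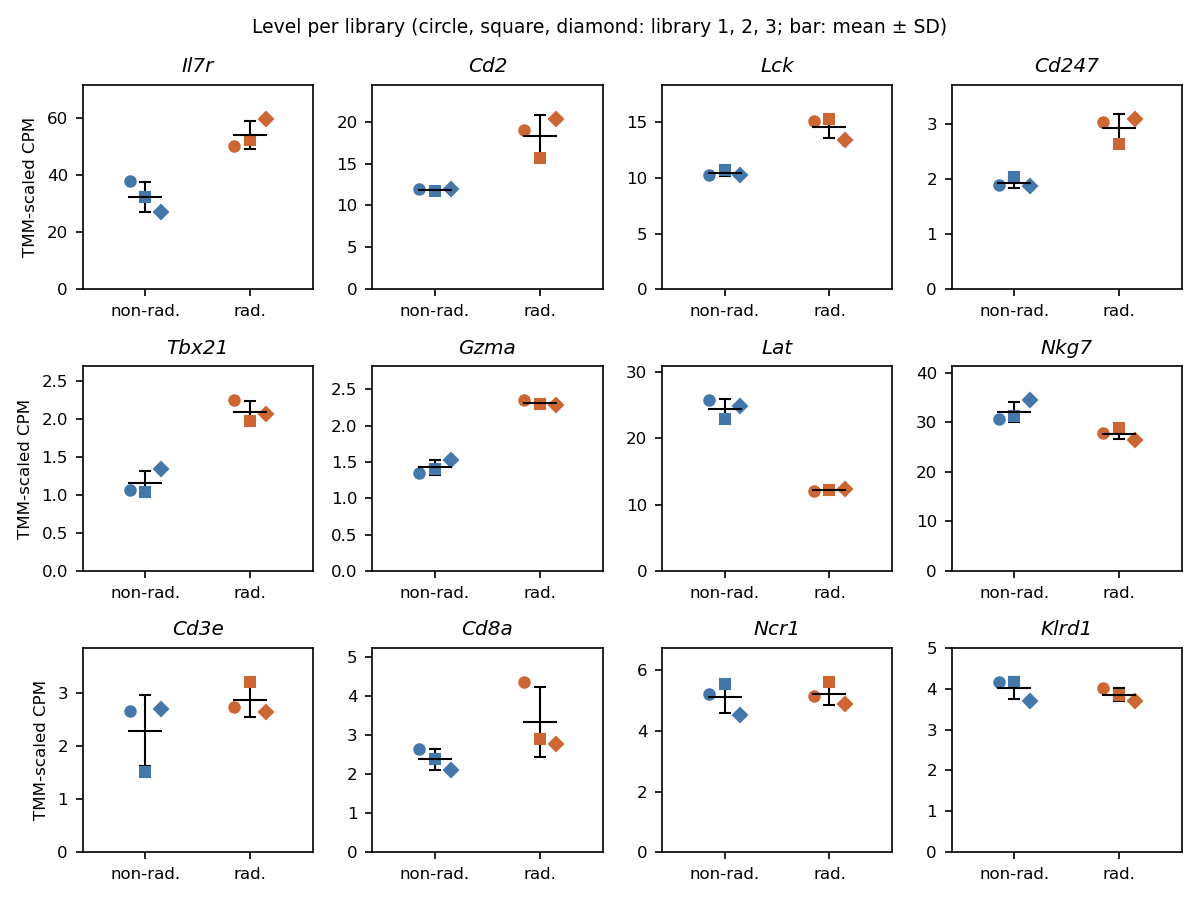
TMM-scaled CPM (y axis, from 0) of 12 genes in each non-radiated (blue) and radiated (orange) library, with mean and SD, n = 3 each. Il7r, Cd2, Lck, Cd247, Tbx21 and Gzma separate upward and Lat downward, while Ncr1 and Klrd1 overlap and Cd8a is raised most in radiated library 1.

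Among the signalling genes, Lck rose and Lat fell. Lck (ENSMUSG00000000409, chromosome 4, 129548344 to 129573641), the kinase that starts receptor signalling, was at 10.3, 10.7 and 10.3 CPM in the non-radiated and 15.1, 15.3 and 13.4 CPM in the radiated libraries. The log2 fold change was 0.49 (SE 0.09, adjusted p 0.0108 by edgeR), with no overlap, and the call was kept in 14 of 16 settings. It was lost without radiated library 1 and under library totals alone. Zap70, the kinase that docks on phosphorylated CD3 and zeta chains, was at 1.76, 1.08 and 1.72 CPM in the non-radiated and 3.01, 2.15 and 2.51 CPM in the radiated libraries. Its log2 fold change of 0.73 (SE 0.22) had an adjusted p of 0.0835 by edgeR, and of 0.0363 with the replicate block. Txk, a Tec-family kinase of T and NK cells, was at 3.38 ± 0.0515 and 3.61 ± 0.642 CPM (n = 3 each; adjusted p 0.799 by edgeR).

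Lat (ENSMUSG00000030742, chromosome 7, 126363832 to 126369543) was at 25.8, 22.8 and 24.8 CPM in the non-radiated and 12.05, 12.21 and 12.35 CPM in the radiated libraries. The radiated values were nearly identical and lay far below the lowest non-radiated one, with a log2 fold change of -1.0 (SE 0.08, adjusted p 7.66e-05 by edgeR). Lat was called lower in all 16 settings, with log2 fold changes from -1.06 to -0.82. The adaptor is also expressed in megakaryocytes, platelets and mast cells. All 8 megakaryocyte markers were called lower, their sum was 1029 to 1095 CPM in the non-radiated and 345 to 412 CPM in the radiated libraries, and none was at 0. Of 8 tested markers of mast cells and basophils 6 were called lower and 1 higher. Their sums were 198 to 214 CPM in the non-radiated and 138 to 159 CPM in the radiated libraries. The higher one was Tpsb2 (log2 fold change 2.48, on 1 to 17 counts per library). Cma1, at 1.29, was not called (adjusted p 0.129 by edgeR). Mcpt4, with too few counts to be tested, was at 0.115 and 0.272 CPM (non-radiated and radiated means), without overlap. The 6 called lower were Cpa3, Fcer1a, Ms4a2, Hdc, Mcpt8 (-0.56) and Prss34 (-0.60), so the proteases of this list did not move together. All of these markers were named after their values were seen, and the pooled sum cannot tell mast cells from basophils. The part of these cells in the fall of Lat was not tested.

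Of 6 lineage transcription factors 1 was called. Tbx21 (ENSMUSG00000001444, chromosome 11, 97098071 to 97115331), which encodes T-bet, a factor of type 1 helper, killer T and NK cells, was at 1.07, 1.04 and 1.35 CPM in the non-radiated and 2.25, 1.97 and 2.06 CPM in the radiated libraries. All radiated values lay above all non-radiated ones (log2 fold change 0.85, SE 0.18, adjusted p 0.0224 by edgeR), and the call was kept in 13 of 16 settings. Omitting non-radiated library 1, non-radiated library 2 or radiated library 1 ended it. The related T-box factor Eomes was at 1.12, 0.998 and 1.39 CPM against 2.03, 1.78 and 1.68 CPM, without overlap but not called (log2 fold change 0.63, SE 0.19, adjusted p 0.0878 by edgeR). Bcl11b, which fixes T cell identity, had a log2 fold change of 0.57 (2.31 ± 0.565 and 3.48 ± 0.445 CPM, n = 3 each; adjusted p 0.130 by edgeR).

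None of the factors of naive, type 2 and regulatory T cells was called. Tcf7, which encodes TCF-1 of early and naive T cells, was at 6.40 ± 0.804 and 7.27 ± 0.802 CPM (n = 3 each), log2 fold change 0.18, adjusted p 0.505 by edgeR. Gata3, of type 2 helper T cells and innate lymphoid cells, was at 1.13 ± 0.173 and 1.05 ± 0.0145 CPM (n = 3 each), log2 fold change -0.12 with a 95% interval from -0.57 to 0.34, and its sign turned under library totals alone and without non-radiated library 3. Foxp3, the factor of regulatory T cells, had 6 to 40 counts per library and a log2 fold change of 0.13, with an interval from -0.75 to 1.01, too wide to judge a direction. Foxp3 exons also overlap 4 other genes of the table.

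Costimulatory and checkpoint receptors had positive log2 fold changes for 5 of 5 genes, and none was called by edgeR. At an unadjusted p under 0.05 there were 2, and DESeq2 and limma-voom called none. Pdcd1, which encodes the checkpoint receptor PD-1, had the highest log2 fold change of all 38 genes, 1.11 (SE 0.33, adjusted p 0.0770 by edgeR), on 7, 5 and 14 counts in the non-radiated and 20, 27 and 26 counts in the radiated libraries. Icos, a costimulator of activated T cells, was at 1.09 ± 0.141 and 1.5 ± 0.0810 CPM (n = 3 each), without overlap (log2 fold change 0.45, adjusted p 0.203 by edgeR). Ctla4, an inhibitory receptor, was at 0.247, 0.200 and 1.01 CPM in the non-radiated libraries, a spread wider than that of the radiated ones (0.608, 0.449 and 0.851 CPM). Its log2 fold change of 0.28 turned negative without non-radiated library 1 or 2. Cd27 and Cd28 had log2 fold changes of 0.19 and 0.27 (adjusted p 0.477 by edgeR and 0.515).

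The interleukin 7 receptor alpha chain rose, and the beta chain shared by the interleukin 2 and 15 receptors was not called. Il7r (ENSMUSG00000003882, chromosome 15, 9506161 to 9529876), which naive T cells and B-cell precursors need, was at 37.7, 32.1 and 27.1 CPM in the non-radiated and 50.2, 52.2 and 59.6 CPM in the radiated libraries. The groups were well apart, with a log2 fold change of 0.74 (SE 0.12, adjusted p 0.00551 by edgeR), called in all 16 settings. Il2rb was at 15.3, 15.1 and 17.7 CPM against 23.4, 20.3 and 15.2 CPM. Radiated library 3 fell among the non-radiated values, and the difference was not called (log2 fold change 0.29, adjusted p 0.290 by edgeR). Without radiated library 3 Il2rb was called, with an adjusted p of 0.0442 by edgeR.

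B-lineage transcripts moved in the same libraries as Il7r and Cd2. All 10 B cell markers were called higher, with a median log2 fold change of 0.80, sums of 506 to 546 CPM in the non-radiated and 817 to 983 CPM in the radiated libraries, and none at 0. Of 10 macrophage markers 6 were called higher, with sums of 1104 to 1238 and 1428 to 1629 CPM. Of 7 pan-leukocyte markers none was called by edgeR, DESeq2 or limma-voom (2 at an unadjusted p under 0.05), and their sums of 2351 to 2514 and 2164 to 2479 CPM overlapped. What B cells, macrophages and the mix of leukocytes contribute to the values of Il7r, Cd2 and the other genes was not tested.

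**Figure D3:**
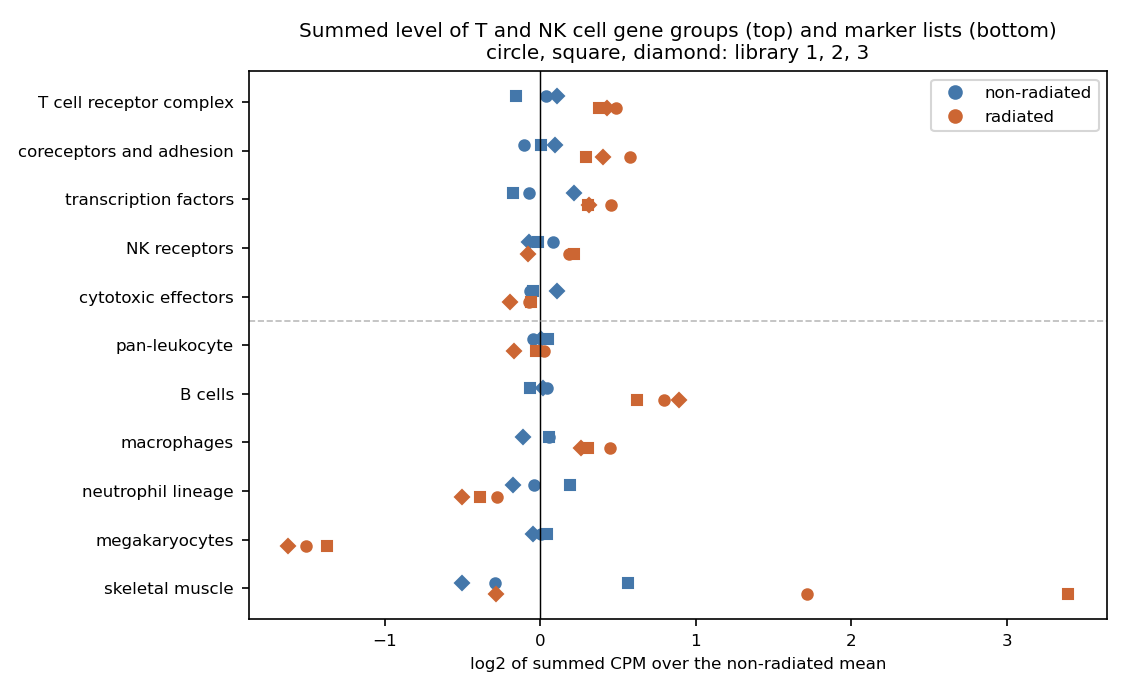
Log2 of the summed CPM over the non-radiated mean (x axis) in each library, for 5 groups of the T and NK cell genes (above the dashed line) and 6 marker lists of other cells (below). Receptor complex sums are higher in each radiated library, NK receptor and effector sums overlap, B cell sums are higher and megakaryocyte sums far lower, and muscle is high in radiated libraries 1 and 2 alone. Most of the effector sum is Nkg7 (means of 32.1 and 27.7 CPM), while Gzma, Gzmb and Prf1, at far lower levels, had positive log2 fold changes.

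No difference was detected in NK receptors. Of Ncr1, Klrb1c, Klrd1 and Klrk1 none was called by edgeR, DESeq2 or limma-voom, none had an unadjusted p under 0.05, and the groups overlapped for each. Ncr1, which encodes the activating receptor NKp46 and is the most restricted marker of NK cells here, was at 5.21, 5.55 and 4.53 CPM in the non-radiated and 5.15, 5.62 and 4.88 CPM in the radiated libraries. The log2 fold change was 0.04 with a 95% interval from -0.25 to 0.33. Klrd1, the CD94 chain of inhibitory and activating receptor pairs, was at 4.17, 4.15 and 3.70 CPM against 4.02, 3.84 and 3.70 CPM, with a log2 fold change of -0.06 and an interval from -0.34 to 0.23. For Klrk1 (NKG2D, a receptor for stress ligands) and Klrb1c (NK1.1) the log2 fold changes were 0.17 and 0.21, with intervals from -0.15 to 0.50 and from -0.09 to 0.52. These intervals leave room for changes of up to about the size seen in Lck for Klrk1 and Klrb1c. Klrb1c shares stretches at 90% identity or more with Klrb1a, Klrb1b and Klrb1-ps1, and its counts are uncertain.

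Of the cytotoxic effectors, Gzma was called higher and Nkg7 had a negative value. Gzma (ENSMUSG00000023132, chromosome 13, 113093825 to 113100979), the granzyme A protease of killer cells, was at 1.34, 1.40 and 1.53 CPM in the non-radiated and 2.35, 2.30 and 2.29 CPM in the radiated libraries. Replicates lay close together in each group, with a log2 fold change of 0.69 (SE 0.16, adjusted p 0.0275 by edgeR), although the gene had only 35 to 123 counts per library. The call was kept in 9 of 16 settings and in 1 of the 6 fits without 1 library, the one without non-radiated library 3. Prf1, the pore-forming perforin, was at 0.878, 0.918 and 1.32 CPM against 2.17, 1.65 and 1.28 CPM, so radiated library 3 overlapped the non-radiated values (log2 fold change 0.69, SE 0.26, adjusted p 0.157 by edgeR). Gzmb, on 7 to 29 counts, had a log2 fold change of 0.57 (adjusted p 0.312 by edgeR).

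Nkg7, a granule membrane protein, was at 30.7, 31.2 and 34.5 CPM in the non-radiated and 27.9, 28.8 and 26.5 CPM in the radiated libraries. The groups did not overlap, and the log2 fold change of -0.21 (SE 0.07) was not called (adjusted p 0.122 by edgeR). Per kilobase of gene length, the control femurs averaged 36.6 CPM for Nkg7. The same measure gave 1.62 for Gzma, 0.506 for Prf1 and 3.31 for Ncr1. The part of cells other than T and NK cells in the level and the difference of Nkg7 was not tested. Ifng, the cytokine interferon gamma, had 5, 5 and 3 counts in the non-radiated and 13, 21 and 4 counts in the radiated libraries and was under the filter on low counts. Fitted without that filter, it gave 1.09 on the log2 scale (adjusted p 0.423 by edgeR). Radiated library 3 lay among the non-radiated counts, so the groups overlapped.

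Levels between genes were compared per kilobase of the length given in the table. In the non-radiated libraries Nkg7 was highest, at 36.6 CPM per kilobase, followed by Lat at 19.7, Il7r at 10.1, Cd4 at 6.96 and Cd2 at 6.84. The values of Cd4 and Cd2 overlapped between libraries, so their order is not resolved. NK receptors Ncr1 and Klrd1 (3.31 and 3.13 CPM per kilobase) were above Cd3d, Cd3g and Cd3e (2.14, 1.68 and 1.6). Klrk1 and Klrb1c, at 1.89 and 1.59, were below Cd3d. The receptor constant genes Trbc2, Trac and Trbc1 were at 3.65, 3.35 and 2.98, so NK receptor and T cell receptor genes were interleaved. Ctla4, Foxp3, Pdcd1 and Ifng had the lowest means, at 0.209, 0.156, 0.125 and 0.113 CPM per kilobase. Their libraries overlapped, and the mean of Ctla4 rested on non-radiated library 3 (0.435, against 0.106 and 0.0857 in the others), so the order of these 4 is not resolved. In the radiated libraries Il7r, at 16.8 CPM per kilobase, stood above Lat, at 9.85, the reverse of their order in the control femurs.

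**Figure D4:**
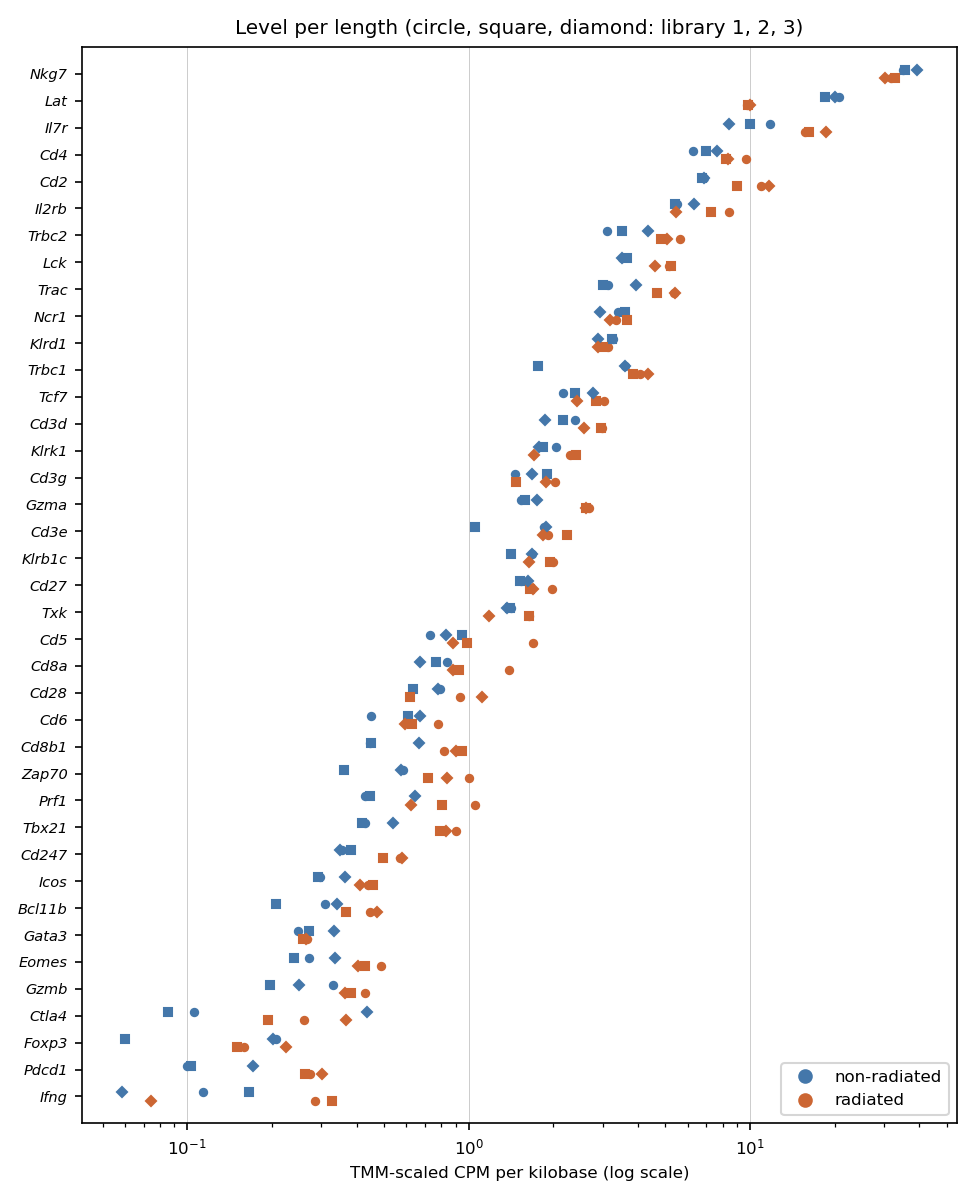
TMM-scaled CPM per kilobase (x axis, log scale) of all 39 genes in each library, ordered by the non-radiated mean. Levels span from 0.113 for Ifng to 36.6 for Nkg7, and the shift between groups is small beside that range for every gene.

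Other genes of these pathways were read from lists grouped by function, whose counts of calls stand beside 7.8% called over all genes tested (4.56% higher and 3.24% lower). Of 19 tested genes of T cell receptor signalling 4 were called higher and 4 lower. Ptprcap, which associates with CD45, rose from 10.1 ± 1.46 to 18.1 ± 0.434 CPM (n = 3 each), log2 fold change 0.84, adjusted p 0.00216 by edgeR. The others called higher were Rasgrp1, Themis and Sit1, at 0.58, 0.84 and 1.26 on the log2 scale. The B cell markers, 10 of 10 called higher with a ratio of mean sums of 1.71, had higher sums in the same libraries. Their part in the 4 higher calls was not tested. Grap2, the adaptor Gads that binds Lat, fell from 58.3 ± 1.52 to 42.3 ± 1.34 CPM (n = 3 each), log2 fold change -0.46, adjusted p 0.00147 by edgeR. Prkcq, the kinase PKC theta, fell from 24.2 ± 1.45 to 13.8 ± 1.45 CPM (n = 3 each), log2 fold change -0.81, adjusted p 0.00118 by edgeR. The other 2 called lower were Lcp2, which encodes the Lat partner SLP-76, and Sla2, at -0.27 and -0.97. Rasgrp1, Themis, Sit1, Lcp2 and Sla2 were named after their values were seen. Calls of Grap2 and Prkcq were lost under library totals alone. The megakaryocyte markers, 8 of 8 lower with a ratio of mean sums of 0.354, and the mast cell and basophil markers, 6 of 8 lower and 1 higher with a ratio of 0.717, had lower sums in the same libraries as these 4 genes, and their part in the 4 lower calls was not tested.

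Beyond the 4 NK receptors above, 21 further ones were tested, with 2 called lower and none higher. These were Cd226, an adhesion receptor of NK cells, T cells and platelets (28.2 ± 2.03 to 9.59 ± 1.19 CPM, n = 3 each, log2 fold change -1.55, adjusted p 4.21e-05 by edgeR), and Crtam (-0.73, adjusted p 0.0296 by edgeR, kept in 10 of 16 settings and, of the 6 fits without 1 library, in the one without radiated library 2). The part of the megakaryocyte markers in the fall of Cd226 was not tested either. Further cytotoxic genes gave 2 lower calls among 13, Srgn at -0.35 and Il18rap at -0.24, both shared with myeloid cells. Il18rap was lost when non-radiated library 2 or radiated library 1 was omitted. The 10 neutrophil lineage markers had a median of -0.35 and sums of 14595 to 18792 CPM in the non-radiated and 11622 to 13599 CPM in the radiated libraries, and none was at 0. None of them was called by edgeR, all 10 had an unadjusted p under 0.05, DESeq2 called 10 and limma-voom 2, and their part in the values of Srgn and Il18rap was not tested. Of 4 tested genes of gamma-delta and innate-like T cells none was called by edgeR, DESeq2 or limma-voom, with 1 at an unadjusted p under 0.05. Among 14 regulatory and checkpoint genes 2 were higher, Il2ra at 0.69 (adjusted p 0.0100 by edgeR) and Nrp1 at 0.23 (0.0434, kept in none of the 6 fits without 1 library). Of 16 genes of naive state and homing, Lef1 (1.0) and Ccr7 (0.67, named after its value was seen) were called higher and Ccr9 (-0.91) and Cd44 (-0.25) lower. The call of Cd44 was kept in 1 of the 6 fits without 1 library, the one without non-radiated library 3. Ccr9 is also a marker of plasmacytoid dendritic cells, of which Siglech fell by 0.87 on the log2 scale (adjusted p 0.000477 by edgeR), and the part of these cells in its fall was not tested. Lef1, Il2ra and Ikzf3 (0.66, among 3 of 14 further transcription factors called higher, with Ets1 at 0.28 and Maf at 0.39) are also expressed in the B lineage or in macrophages. Ets1 was kept in 3 of the 6 fits without 1 library and lost without non-radiated library 1 or 2 and when radiated library 1 was omitted.

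Ligands that attract or maintain T cells gave 4 higher calls and no lower one among 13. Cxcl9, a ligand of the receptor CXCR3 on activated T cells, was at 3.21, 3.95 and 4.70 CPM in the non-radiated and 13.6, 11.9 and 9.30 CPM in the radiated libraries. All radiated values lay above all non-radiated ones (log2 fold change 1.55, SE 0.18, adjusted p 0.00113 by edgeR). Cxcl10, which acts on the same receptor, was higher by 1.45 on the log2 scale (1.09 ± 0.0642 to 2.97 ± 0.756 CPM, n = 3 each, adjusted p 0.00487 by edgeR). Il7, the ligand of the Il7r product, rose from 3.79 ± 0.482 to 5.92 ± 0.204 CPM (n = 3 each), log2 fold change 0.64, adjusted p 0.0190 by edgeR. That call was kept in 12 of 16 settings and lost without non-radiated library 2 or 3, without radiated library 1 and under library totals alone. Cxcl16, named after its value was seen, was at 0.57 (adjusted p 0.0220 by edgeR). In the list of class I presentation and NKG2D ligands 1 of 13 tested genes was called, near the share over all genes, and all 13 log2 fold changes were positive. The called gene was Nlrc5, the class I transactivator (0.35, adjusted p 0.00527 by edgeR). Of the 7 tested early T lineage genes 3 were higher, Rag1 (0.76), Rag2 (0.97) and Dntt (0.60), which B-cell precursors also use to rearrange their receptor genes. Omitting non-radiated library 2 or 3 ended the call of Rag1. The type 2 innate lymphoid list had 1 of 4 tested genes lower (Il1rl1, -0.32) and 1 higher (Hpgds, 0.45). What cells other than innate lymphoid cells contribute to the values of Il1rl1 and Hpgds was not tested. Both calls were lost when non-radiated library 1, radiated library 1 or radiated library 3 was omitted, that of Il1rl1 also without non-radiated library 2, and both under library totals alone.

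**Figure D5:**
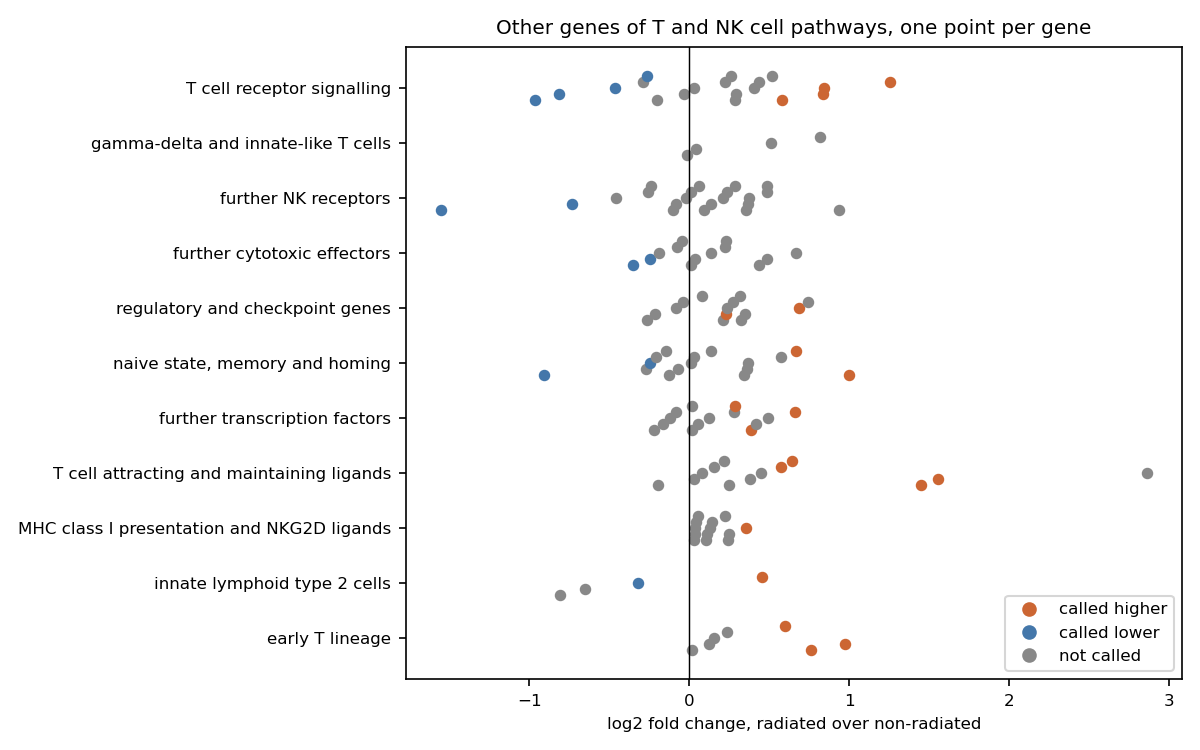
Log2 fold change (x axis) of each tested gene in 11 lists of related T and NK cell genes, coloured by call. Signalling genes are split between higher and lower calls, the called NK receptor and effector genes are all lower, and the called ligands are all higher.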

How the data were processed

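RNA was measured in 6 femur libraries, prepared with a stranded mRNA kit per the labels' protocols. Raw counts and RPKM per gene were deposited by the authors in 1 table, per the file headers. The submitters' processing notes name bcl2fastq, STAR 2.5.2b, Subread, featureCounts and build mm10. Annotation, filters and use of strand are not given in the sources used here. The deposited RPKM was not used. The deposited counts were tested with edgeR 4.0.16 (R 4.3.3): filterByExpr (minimum count 10, minimum total 15), TMM scaling, glmQLFit and glmQLFTest with group as the only term, and Benjamini-Hochberg adjustment over 18757 genes, called under 0.05. The SE is the log2 fold change divided by the square root of F, and the 95% interval uses edgeR's total degrees of freedom. The biological coefficient of variation was 12.9%. On counts simulated for this comparison (18462 genes), 70.7% of 2-fold and 91.8% of 4-fold changes were found again. The changed genes were drawn at random over all genes. Changes under 2-fold, such as those of the T and NK cell genes called higher, were not simulated, so these shares do not apply to them.

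Genes and lists were chosen with earlier results of these data known. All 39 genes could be named. From each list of other genes up to 3 called genes with the smallest p were named, or the 1 with the smallest p where none was called. Of 293 listed genes 289 were found, 3 through their gene ID. Replicates differed by more than sampling noise (chi-square per degree of freedom 16.6 to 580). Deviations from the group means correlated at 0.171, 0.294 and 0.192 for libraries with the same number and at -0.182 to -0.003 for different numbers, across genes, which are not independent replicates. Because deviations are centred within each group, the negative values follow from the positive ones and are no separate evidence. By this check alone the replicate block was read as a paired fit. The main calls came from the fit without the block. Alternatives were DESeq2 1.42.0 size factors and Wald test, limma-voom (limma 3.58.1), library totals, upper quartile scaling, 2 other filters, the replicate block, leaving out each library, and, added after seeing the data, library totals without AY036118. Similar transcripts were found with BLAST 2.17.0 at 90% identity over 100 bases in GENCODE M21. Txk shared such stretches, of up to 154 bases, with 304 other genes, Il7r (up to 115 bases) with 12 and Cd3d (up to 110 bases) with 9. The effect on the counts of these genes was not tested. Protein motifs were not analysed here.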

Additional observations from a re-analysis of the deposited data

How the results depend on the processing

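Il7r, Cd2 and Lat kept their call and direction in all 15 alternatives. Over the alternatives, the T and NK cell genes called numbered 4 under library totals alone, where the median log2 fold change was 0.58 and that of all genes was 0.19 against 0.00 with TMM. There 85.4% of called genes were higher, against 58.5% with TMM. Leaving out 1 library gave 764 to 1376 called genes over the table (1463 with all), 3 to 7 calls among the T and NK cell genes, and medians of 0.33 to 0.47. The low end came without radiated library 1 in all 3 cases. The call count over all genes was 905 and 819 when non-radiated library 1 or 2 was omitted. With the replicate block 7 of the T and NK cell genes were called and 1670 over all genes, with a median of 0.46, and the block removed Cd247 and added Zap70 among the T and NK cell genes. It changed no other call among them. Library totals without AY036118 gave 8 calls and a median of 0.45. Among these genes, signs turned for 5 that were not called. Over the fits without 1 library, log2 fold changes ran from -0.048 to 1.47 for Ctla4 (-0.048 without non-radiated library 1, -0.034 without 2), from -0.21 to 0.017 for Gata3 (0.017 without non-radiated library 3), from -0.21 to 0.35 for Foxp3 (-0.21 without non-radiated library 2, -0.077 without radiated library 3) and from -0.047 to 0.087 for Ncr1 (-0.047 without non-radiated library 3, -0.019 without radiated library 2). Library totals alone turned Gata3 (0.072) and Klrd1 (0.14). The cause was not tested. Ifng, Gzmb, Pdcd1, Ctla4 and Foxp3 rest on at most 43 counts in any library.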

Other observations

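Rows for the segments from which T cell receptors are rearranged were read apart from the constant genes. The 59 alpha joining segments summed to 100 to 246 counts in the non-radiated and 305 to 366 counts in the radiated libraries, or 3.99 to 5.80 and 6.85 to 8.06 CPM. The radiated values lay above the others, with a ratio of means of 1.56. The 14 beta joining segments also separated, at 3.51 to 4.22 and 4.51 to 4.73 CPM, with a ratio of means of 1.19. The 109 alpha variable segments did not separate, at 1.45 to 1.84 and 1.44 to 1.95 CPM on 46 to 87 counts, nor did the 35 beta variable segments, at 3.03 to 3.37 and 2.47 to 3.59 CPM. Gamma chain rows summed to 1.298 to 2.56 CPM in the non-radiated and 1.41 to 2.40 CPM in the radiated libraries, and delta chain rows held 7 to 35 counts. Most segment rows had too few counts to be tested: 4 alpha joining, 3 beta variable, 7 beta joining and 3 gamma chain rows entered the fit, and no alpha variable or delta chain row did. None of the rows in the fit was called by edgeR, and the sums carry no test.

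Set against the 7 pan-leukocyte markers, the CD3 and zeta chains summed to 0.337% to 0.394% of their level in the non-radiated and 0.474% to 0.516% in the radiated libraries, without overlap. The 4 NK receptors summed to 0.858% to 0.988% and 0.960% to 1.07%, with overlap. Gzma relative to Ncr1 was 0.252 to 0.339 in the non-radiated and 0.410 to 0.468 in the radiated libraries, without overlap, and Cd8a relative to Cd3e was 0.774 to 1.58 and 0.895 to 1.59. These ratios were chosen with the values of the genes known and carry no test.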
